A study of Mus musculus with 4 samples.

Results

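The genes described here are Cd80, Cd86, Cd274, Pdcd1lg2 and Icosl, which encode 5 ligands of the B7 family, together with Cd83, which encodes a surface protein of mature dendritic cells. They were chosen by name, with earlier results of these data known, and all probe sets annotated to them were read. A probe set is the group of short oligonucleotides that reports on 1 transcript of the array. The 6 genes had 11 probe sets, out of 12393 genes and 20380 probe sets that carried 1 gene symbol.

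B7 proteins sit on antigen-presenting cells and give T cells the signal that accompanies antigen. CD80 and CD86 bind CD28, which supports T cell activation, and CTLA-4, which restrains it. PD-L1 (from Cd274) and PD-L2 (from Pdcd1lg2) bind the inhibitory receptor PD-1, and the ICOS ligand (from Icosl) binds ICOS on activated and follicular helper T cells. CD83 is used as a marker of dendritic cell maturation and helps to keep MHC class II and CD86 on the cell surface. Dendritic cells that sense bacterial products through Toll-like receptors are known to raise several of these molecules as they mature.

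Total RNA of mouse dendritic cells was measured on 4 arrays, with 1 array in each of 4 groups. Cells of every group, the media control included, are labelled CD11c+ and IL10-/-, that is, lacking interleukin 10, a cytokine that dampens dendritic cell activation. They were cultured for 6 h with SEA, LPS, both agents (SEA/LPS) or neither (media). LPS is bacterial lipopolysaccharide, which signals through TLR4. All 4 samples carry the same lot label. The labels do not expand SEA, do not give doses, and do not name the organ of origin, the strain, the age or the number of animals behind a sample. Because each group was 1 sample, no comparison below has a replicate check, no test was run, and having so few arrays limits the precision. Values are array signals on a linear scale, and a difference is log2 of the ratio of 2 signals of the same probe set. Calls of higher or lower rest on size alone, at 2-fold or more (1 on the log2 scale).

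The 2% trimmed mean was 150.1 on each array, a value that common scaling appears to have set. The floor below which signals were not ordered was 33.3. The SEA/LPS array had a lower median signal (45.05) than the others (51.5 to 53.2). It also had fewer probe sets above the floor (57.3%, against 60.6% to 61.1%). The ratio of 3' to 5' Gapdh signal, a sign of RNA integrity, ran from 2.21 in media to 3.12 with SEA/LPS. Hybridisation controls, foreign transcripts added before hybridisation, were brighter than in media by 0.55 log2 with LPS and 0.31 log2 with SEA/LPS. Itgax, which encodes CD11c, read 2732 (media), 2181 (SEA), 1851 (LPS) and 2093 (SEA/LPS), and 10 or 11 of 11 dendritic cell markers lay above the floor on each array. The summed signal of these markers was 24123 (media), 25282 (SEA), 30885 (LPS) and 21991 (SEA/LPS). With LPS, 5 of the 11 lay above their media signal and 6 below it. Of 6 T cell markers with a probe set, at most 1 (Thy1) lay above the floor on any array, and Cd3d, Cd3e, Cd3g, Cd4 and Cd8b1 were at or under it on all. Of 7 B cell markers with a probe set 4 or 5 were above it on each array, with a summed signal of 359 to 481. Ms4a1, Blk, Cd22 and Ighm were above the floor on all arrays, Cd79a in media and with SEA, and Pax5 and Cd79b on none. All 5 macrophage markers, which dendritic cells can also express, were above it (summed signal 6075 to 7622). Of 4 NK cell markers with a probe set 1 to 3 lay above the floor, and of 6 neutrophil markers 3 or 4. Mast cell markers above it were 2 or 3 of 5, and stroma markers 1 or 2 of 6. In bulk RNA, fewer cells expressing a gene and less RNA per cell cannot be told apart.

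The 250 bases before the start sites of 4 of the 6 genes are printed next. They come from RefSeq's table for mouse build GRCm38.p6, which matched 4 of the 6 genes. It held no window for Cd86 and Cd83, which were also higher with LPS. Of the 4 genes printed, Cd80 and Cd274 were higher with LPS and Pdcd1lg2 and Icosl were not. All lie on the plus strand: Cd80 at chr16:38458683-38458932, Cd274 at chr19:29367188-29367437, Pdcd1lg2 at chr19:29410669-29410918 and Icosl at chr10:78069118-78069367. Capitals mark matches, on either strand, to the 5 motifs named after them.
Cd80: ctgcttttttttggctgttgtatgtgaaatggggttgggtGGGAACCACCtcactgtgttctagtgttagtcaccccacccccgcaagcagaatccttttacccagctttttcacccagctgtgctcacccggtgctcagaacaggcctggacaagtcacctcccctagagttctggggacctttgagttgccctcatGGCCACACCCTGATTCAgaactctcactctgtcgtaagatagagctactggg
Cd274: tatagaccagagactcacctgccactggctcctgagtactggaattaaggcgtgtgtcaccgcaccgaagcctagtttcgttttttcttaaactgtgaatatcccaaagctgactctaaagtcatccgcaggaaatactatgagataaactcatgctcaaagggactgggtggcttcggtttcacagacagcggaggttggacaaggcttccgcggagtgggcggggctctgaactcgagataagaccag
Pdcd1lg2: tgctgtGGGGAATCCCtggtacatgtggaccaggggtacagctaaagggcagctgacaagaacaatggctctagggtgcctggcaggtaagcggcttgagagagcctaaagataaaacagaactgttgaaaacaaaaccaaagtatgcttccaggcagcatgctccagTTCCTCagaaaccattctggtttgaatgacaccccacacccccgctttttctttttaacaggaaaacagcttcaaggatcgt
Icosl: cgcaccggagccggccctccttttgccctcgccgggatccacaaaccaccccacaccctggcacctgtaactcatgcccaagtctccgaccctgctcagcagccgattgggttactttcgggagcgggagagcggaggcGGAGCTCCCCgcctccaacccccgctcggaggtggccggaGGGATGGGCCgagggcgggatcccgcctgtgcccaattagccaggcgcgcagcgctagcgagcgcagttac

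The motifs searched were a kappaB-type site of NF-kappaB (GGGNNNNNCC), an interferon-stimulated response element (GAAANNGAAA), a STAT site (TTCNNNGAA), an AP-1 site (TGANTCA) and a PU.1 core (GAGGAA). Cd80 held kappaB-type matches at bases -210 to -201 and -52 to -43 from its start, and an AP-1 match at -42 to -36 that runs on directly from the second of these. Icosl held kappaB-type matches at -111 to -102 and -71 to -62. Pdcd1lg2 held 1 at -244 to -235 and a PU.1 core at -82 to -77. The Cd274 window held none of the 5 motifs. Among 32851 windows of the same length the kappaB-type letters stood in 45.8%, the interferon element in 2.98%, the STAT site in 7.02%, the AP-1 site in 6.75% and the PU.1 core in 23.3%. These are matches of letters only: the kappaB-type motif, present in nearly as many windows as not, was found for 1 gene that was higher with LPS and for both that were not. Cd274 and Pdcd1lg2 are neighbours on chromosome 19, with 1 gene model and no protein-coding gene between them, and Cd80 and Cd86 share chromosome 16.

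With LPS, transcripts of both CD28 ligands, of PD-L1 and of CD83 were higher than in media, while those of PD-L2 and the ICOS ligand were not. Of the 6 genes, 4 were at least 2-fold higher with LPS and 0 lower. Of all 9473 measured genes 6.06% were higher and 8.43% lower at that size. The median difference of the 6 was 1.42, against -0.06 over all genes. All 4 genes that were higher lay above 95% of measured genes, between percentile 95.6 (Cd80) and percentile 98.3 (Cd274). The arrays' scaling sets the split of calls over all genes: 574 were higher and 799 lower as deposited, 724 and 582 after 75th percentile scaling, and 284 and 2431 after scaling to the hybridisation controls. The last of these shifted the median over all genes to -0.56.

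With SEA alone, 0 of 6 genes passed 2-fold against media in either direction, where 0.644% of all genes were higher and 0.633% lower. All 6 differences were above 0 as deposited, from 0.03 for Pdcd1lg2 to 0.52 for Icosl, and those of Pdcd1lg2 and Cd80 turned to -0.05 and -0.02 when scaled to the hybridisation controls. The SD of this difference over all genes was 0.35.

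When SEA was added to LPS, 0 of 6 genes passed 2-fold against LPS alone, where 1.39% of all genes were higher and 3.47% lower. The differences ran from -0.61 for Cd80 to 0.77 for Icosl. Against media, Cd86, Cd274 and Cd83 were at least 2-fold higher with SEA/LPS and 0 were lower, against 4.54% and 7.05% of all genes, and Cd80 lay below 2-fold.

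**Figure D1:**
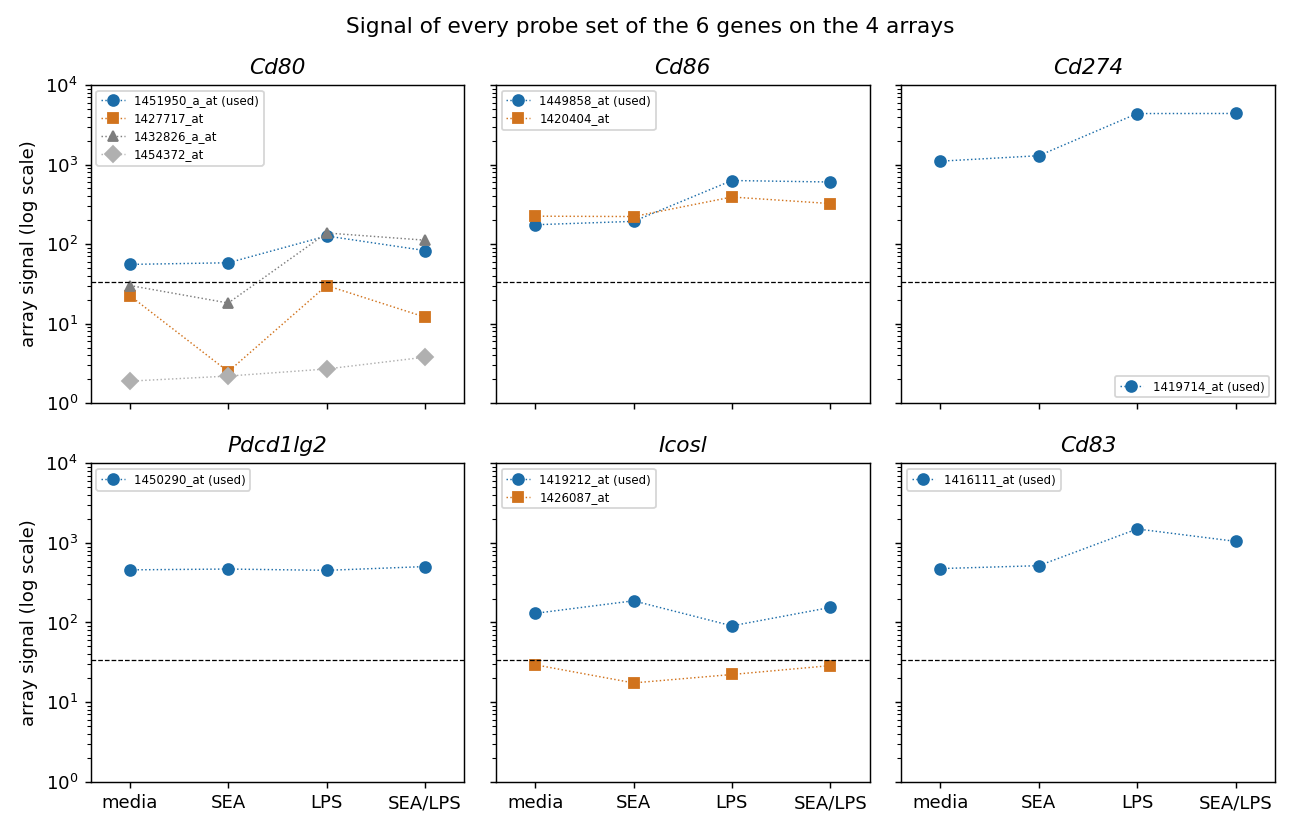
Array signal (log axis) of all 11 probe sets of the 6 genes on the media, SEA, LPS and SEA/LPS arrays, 1 point per array, with the floor of 33.3 dashed; dotted lines join points of 1 probe set as a guide, and signals under the floor have no order. Cd86, Cd274 and Cd83 stand apart in the 2 arrays with LPS, Pdcd1lg2 stays between 452 and 504, and Icosl is lowest with LPS.

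**Figure D2:**
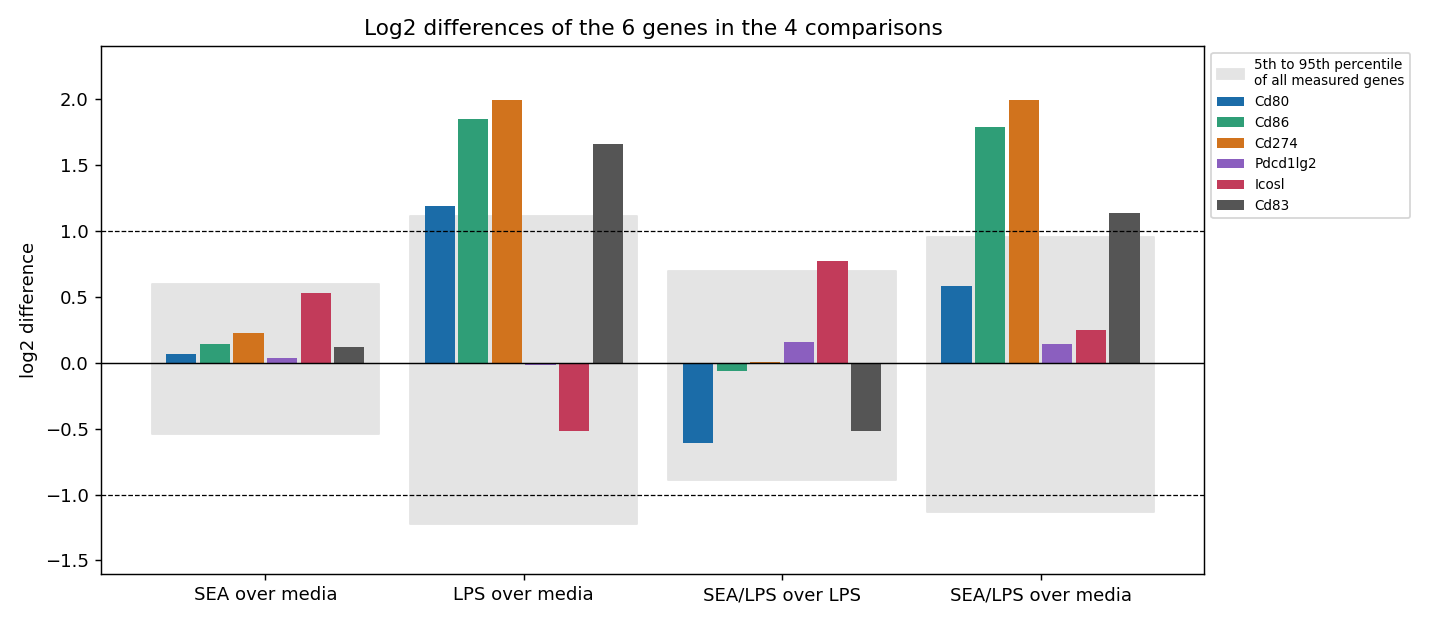
Log2 difference of each of the 6 genes (bars, 1 probe set per gene, 1 array per group) in the 4 comparisons, with the 5th to 95th percentile of all 9473 measured genes in grey and 2-fold dashed. Cd80, Cd86, Cd274 and Cd83 exceed the grey band in LPS over media, and none of the 6 reaches 2-fold in SEA over media or SEA/LPS over LPS.

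Both CD28 ligands read higher with LPS, and which of them differed more depended on the probe set. Cd86 was represented by 1449858_at, which read 175 (media), 193 (SEA), 629.7 (LPS) and 603 (SEA/LPS). The 2 arrays with LPS were high and the 2 without it low, and within each pair the arrays with and without SEA were close. The LPS signal was 3.60-fold that of media (1.85 log2). SEA/LPS differed from LPS by -0.06, and by 0.18 under hybridisation control scaling.

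The other Cd86 probe set, 1420404_at, gave a smaller LPS difference and a larger difference between SEA/LPS and LPS. It read 224 (media), 222 (SEA), 391 (LPS) and 323 (SEA/LPS), so LPS over media was 1.74-fold and below the threshold, SEA/LPS over LPS was -0.27 and SEA over media -0.01. Both probe sets of Cd86 were thus higher on each array with LPS than on either array without it, and they disagreed on whether the size reached 2-fold.

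Cd80 signals lay nearer the floor, and the LPS difference was smaller with SEA/LPS. Its probe set 1451950_a_at read 55.6 (media), 58.3 (SEA), 126.6 (LPS) and 83.0 (SEA/LPS). The LPS signal was 2.28-fold that of media, and the SEA/LPS signal lay between the media and LPS signals. SEA/LPS was 1.53-fold lower than LPS (-0.61 log2, percentile 12.5 of all genes) and 1.49-fold higher than media. On the log2 scale, 48.7% of the LPS difference of this probe set was present with SEA/LPS.

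A second Cd80 probe set, 1432826_a_at, lay at or under the floor in media and with SEA (30.2 and 18.2) and above it with LPS (138.0) and SEA/LPS (112). That is at least 4.14-fold higher with LPS and at least 3.37-fold higher with SEA/LPS, with a difference of -0.30 between these. On the log2 scale at least 85.4% of its LPS difference was present with SEA/LPS. For Cd86 the shares were 96.6% on 1449858_at and 65.9% on 1420404_at, so the order of the CD28 ligands in this respect, and in the size of the LPS difference, reverses between their first and second probe sets. The remaining 2, 1427717_at and 1454372_at, were at or under the floor on all arrays, from 1.9 to 30.2, and give no order. Both Cd80 probe sets above the floor therefore read higher with LPS and lower with SEA/LPS than with LPS, and they differed in size. The LPS difference of Cd80 fell short of 2-fold when scaled to the hybridisation controls (0.64, or 1.20 relative to the median of all genes) and with the median of its probe sets (0.96).

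The PD-1 ligands parted from each other. Cd274 read 1102 (media), 1291 (SEA), 4371 (LPS) and 4380.2 (SEA/LPS) on its 1 probe set. It was high on both arrays with LPS and low on both without, 3.97-fold higher with LPS than with media (1.99 log2). SEA/LPS differed from LPS by 0.003, the smallest difference of the 6 genes in that comparison as deposited, and SEA from media by 0.23. Under 75th percentile scaling SEA/LPS over LPS was 0.07 for Cd274 and 0.002 for Cd86. Under hybridisation control scaling it was 0.24 for Cd274 and 0.18 for Cd86.

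Pdcd1lg2 read 458 (media), 469 (SEA), 452 (LPS) and 504 (SEA/LPS), also on 1 probe set. The highest array was 1.12-fold the lowest, well above the floor on each. Its LPS difference of -0.02 became 0.12 under 75th percentile scaling and -0.57 under hybridisation control scaling. Relative to the median of all genes in that last scaling it was -0.01. With 1 array per group, neither a difference nor its absence can be tested for Pdcd1lg2.

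Icosl read lowest with LPS, and higher with SEA than without it both in media and beside LPS. Its probe set 1419212_at read 130.2 (media), 187 (SEA), 90.7 (LPS) and 154 (SEA/LPS). The 2 arrays with SEA were the 2 highest as deposited, and LPS was the lowest. SEA was 1.44-fold higher than media, at percentile 93.4 of all genes, and SEA/LPS was 1.70-fold higher than LPS, at percentile 96.3. LPS was 1.44-fold lower than media (-0.52 log2).

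All these Icosl differences were under 2-fold as deposited. When scaled to the hybridisation controls LPS over media was -1.07 and SEA/LPS over LPS 1.01, both past the threshold, and SEA/LPS lay below media (-0.07). Relative to the median of all genes these were -0.51 and 0.90 under that scaling and -0.47 and 0.78 as deposited, all under 2-fold. The other Icosl probe set, 1426087_at, was at or under the floor on all 4 arrays (17.4 to 29.4) and so gave no second reading. B cells also express Icosl; the summed signal of the B cell markers was 403 (media), 481 (SEA), 454.5 (LPS) and 359 (SEA/LPS), and its part in the Icosl values was not tested.

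Cd83 read 475.5 (media), 517 (SEA), 1496 (LPS) and 1045 (SEA/LPS) on its 1 probe set. Both arrays with LPS were above both without, and SEA/LPS was the lower of that pair. LPS was 3.15-fold higher than media (1.65 log2), SEA/LPS was 2.20-fold higher than media and 1.43-fold lower than LPS (-0.52). On the log2 scale 68.7% of the LPS difference was present with SEA/LPS, against 100.2% for Cd274. The difference of SEA/LPS over media read 0.83 when scaled to the hybridisation controls, under 2-fold. Relative to the median of all genes it was 1.24 there and 1.26 as deposited.

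The departure from additivity, which subtracts SEA over media from SEA/LPS over LPS on the log2 scale, was below 0 for 4 of the 6 genes, and for 54.4% of all genes. It was -0.68 for Cd80, -0.64 for Cd83, -0.22 for Cd274, -0.20 for Cd86, 0.12 for Pdcd1lg2 and 0.24 for Icosl. None reached 1 in either direction, while 2.99% of all genes did so upward and 6.24% downward. Those of Cd80 and Cd83 stayed below 0 under every scaling tried, and those of Cd86 and Cd274 read 0.12 and 0.10 when scaled to the hybridisation controls, or -0.10 and -0.12 relative to the median of all genes.

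**Figure D3:**
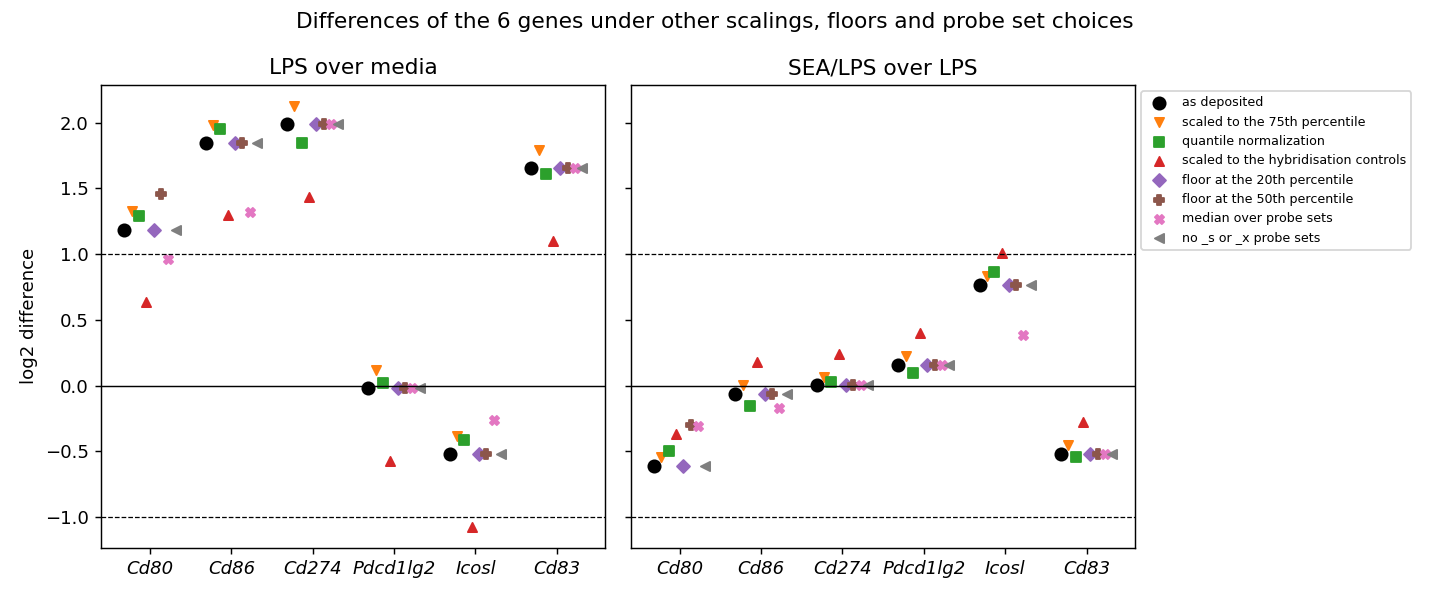
Log2 difference of each of the 6 genes under the deposited values (black circles) and 7 other scalings, floors and probe set choices, for LPS over media (left) and SEA/LPS over LPS (right), with 2-fold dashed. Cd86, Cd274 and Cd83 stay above 1 in LPS over media under all of them, while Cd80 drops to 0.64 and 0.96 under 2, and no gene but Icosl reaches 1 in SEA/LPS over LPS.

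Lists of related genes gave the setting of these values. The counts below stand beside 6.06% of all genes higher and 8.43% lower with LPS. For SEA/LPS over LPS the shares were 1.39% higher and 3.47% lower. When scaled to the hybridisation controls, 284 of all 9534 genes were higher and 2431 lower with LPS. In SEA/LPS over LPS, 299 were higher and 134 lower under that scaling. Of 7 further B7 and butyrophilin relatives, 3 were measured. Vsir, which encodes the inhibitory B7 relative VISTA, read 261 (media), 327 (SEA), 77.0 (LPS) and 67.6 (SEA/LPS). It was thus high without LPS and low with it, 3.39-fold lower with LPS (-1.76), the reverse of Cd274. Vsig4 and Btn1a1 lay near the floor, between 20.5 and 39.8, and Cd276 was at or under it on all arrays.

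Transcripts of the receptors that the 5 B7 ligands meet on T cells were near or under the floor. Ctla4 and Pdcd1 were at or under it on all arrays, Cd28 read 6.4 to 50.2 and Icos 41.1 to 68.2, and 0 of the 2 measured passed 2-fold in any of the 4 comparisons. That 0 depends on the floor, and Cd28 with SEA/LPS lay under it. With a floor at the 20th percentile, 2 receptors were higher and 0 lower with LPS, against 1084 and 1293 of 11474 genes. In SEA/LPS over LPS 0 were higher and 2 lower, against 493 and 955. With SEA alone 1 was higher and 0 lower, against 439 and 367. In SEA/LPS over media 1 was higher and 1 lower, against 732 and 1233.

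Costimulators of the TNF superfamily, which act beside the B7 family, had 3 of 5 measured members higher with LPS and 0 lower (median 1.54), or 2 higher when scaled to the hybridisation controls. Cd40, the receptor through which helper T cells license dendritic cells, read 39.5 (media), 46.1 (SEA), 1224 (LPS) and 788 (SEA/LPS) (4.95 for LPS over media). Tnfsf4, the OX40 ligand, had a difference of 2.14 and Cd70, the CD27 ligand, of 1.54. With SEA/LPS over LPS, Cd70 was lower (-1.12), Tnfsf4 and Cd40 lay at -0.78 and -0.64, and Tnfsf9 and Tnfsf8 at 0.14 and 0.13. The call of Cd70 was absent when scaled to the hybridisation controls.

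Adhesion and checkpoint ligands had 5 of 11 measured members higher with LPS and 0 lower (median 0.84), or 3 higher and 2 lower when scaled to the hybridisation controls. Cd200, which binds an inhibitory receptor on myeloid cells, was at 2.47, the adhesion molecule Alcam at 1.73 and Slamf1 at 1.06, while Vcam1, which did not pass the floor in media, was higher by at least 3.03-fold. With SEA/LPS over LPS, 2 were lower, Alcam (-1.09) and Pvr (-1.07), and 0 higher, with 0 lower under that scaling. With the median over probe sets, 3 were higher with LPS and 0 were lower in SEA/LPS over LPS. After quantile normalization, which gives all arrays the same distribution of signals, 1 was lower in SEA/LPS over LPS.

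Maturation and migration genes had 6 of 11 measured members higher with LPS and 0 lower (median 1.65), with 6 higher and 1 lower when scaled to the hybridisation controls. Il15, a cytokine that sustains T and NK cells, was at 4.16, Fscn1, an actin-bundling protein of mature dendritic cells, at 3.11 and Marcksl1 at 2.86. Il15ra, the receptor chain that presents IL-15, did not pass the floor in media and was at least 17.3-fold higher. With SEA/LPS over LPS 0 of 11 passed 2-fold and the median was -0.10, against -0.01 over all genes. Ccr7, the receptor that guides mature dendritic cells to lymph nodes, lay at -0.73, Relb at 0.60, Fscn1 at -0.57 and Socs2 at 0.56, and 7 of 11 were below 0.

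Of 4 genes of surface turnover 1 had a probe set, Cmtm6, which protects PD-L1 from lysosomal degradation. It read 541 (media), 609 (SEA), 1076 (LPS) and 764 (SEA/LPS), a LPS difference of 0.99 that stayed just under 2-fold as deposited.

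Transcription factors with known roles upstream of the family had 6 of 15 measured members higher with LPS and 1 lower (median 0.73), or 5 and 3 when scaled to the hybridisation controls. That scaling placed 2431 of all 9534 genes lower with LPS. Irf7, a regulator of type I interferon responses, was at 3.75, Stat2 at 3.26, Rel, an NF-kappaB subunit, at 2.58 and Jun, a subunit of AP-1, at -2.08. With SEA/LPS over LPS, 5 of 15 were lower and 0 higher, among them Stat2 (-2.91), Nfkb2 (-1.63), Rel (-1.23) and Stat3 (-1.16), against 2 lower and 1 higher when scaled to the hybridisation controls. Nfkb2 read 469 in media, 1444 with LPS and 465.5 with SEA/LPS, so that its SEA/LPS signal stood at the media level.

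**Figure D4:**
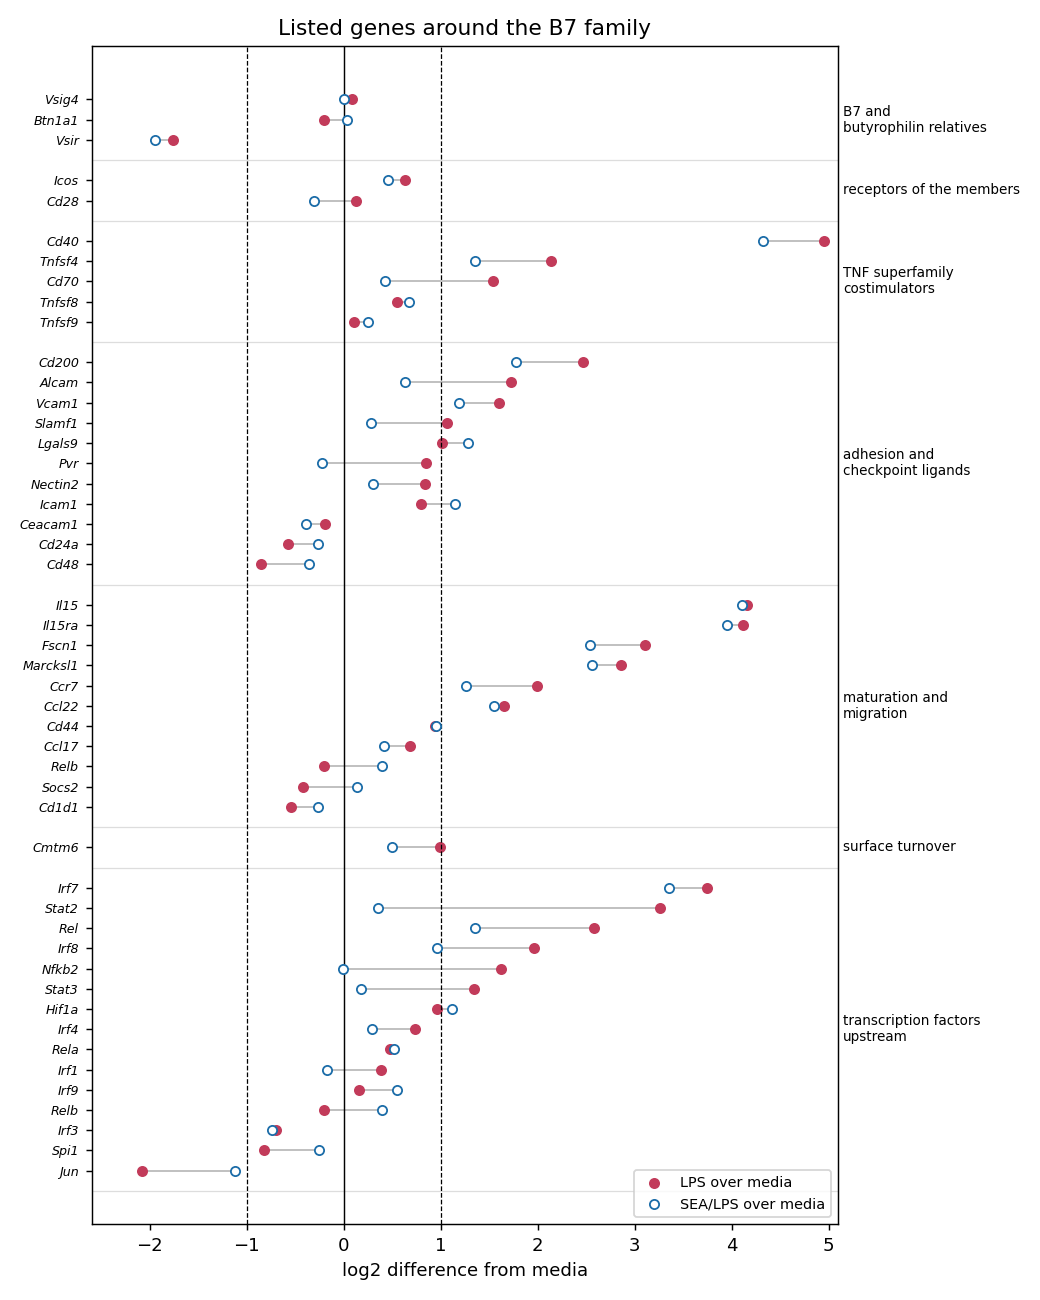
Log2 difference from media of the measured genes of the 7 lists with LPS (filled) and with SEA/LPS (open), 1 array each, with 2-fold dashed; differences that involve an array at or under the floor are lower bounds (Il15ra, Vcam1 and Vsig4 in media, Cd28 with SEA/LPS), and Vsig4 with SEA/LPS is at 0 because both arrays lay there. The open point of Stat2, Nfkb2, Alcam and Cd70 lies well to the left of the filled one, and those of Il15 and Ccl22 lie close together.

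The genes whose signals were most like each of the 6 over the 4 arrays were found by Euclidean distance between log2 signals centred on each gene's mean, among 7142 genes above the floor on all arrays. Nearest to Cd274 were Bst2, which encodes the interferon-induced protein tetherin (distance 0.02), the acute phase gene Saa3 (0.06) and Traf1, an adaptor of TNF receptors (0.07). Traf1 was also the nearest to Cd86 (0.09), followed by Cpeb4 (0.12) and Ell2 (0.13). For Cd83 they were the kinase gene Map2k1 (0.13), Dnajc1 (0.14) and Fndc3a (0.14). For Cd80 they were Nus1 (0.07), Pik3r1 (0.08) and Rab15 (0.09), for Pdcd1lg2 Ing1 (0.02), Hdac3 (0.04) and Spcs1 (0.04), and for Icosl Pfdn5 (0.07), Sun1 (0.08) and Dctn6 (0.10). Bst2 read 176 (media), 203 (SEA), 698 (LPS) and 699.9 (SEA/LPS), a pattern over the groups like that of Cd274. The signals of Cd274 themselves were higher in every group, from 1102 in media to 4380.2 with SEA/LPS. Each likeness rests on 4 values, 1 per group.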

How the data were processed

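The deposited table holds 22690 Affymetrix probe sets for each of 4 arrays. Their values look like linear 1-colour intensities that the authors had scaled to a common trimmed mean. The software and the scaling rule are not given in the labels. Common scaling hides differences in total RNA and sets how many genes read as higher or lower. Probe sets were named through the platform annotation: 20380 had 1 symbol, 691 several, 1555 none and 64 were controls; only the first were used. Of these, 20351 matched gene identifiers of mouse assembly GRCm38.p6, used for current names.

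Before taking log2, a floor was set at the 40th percentile of all values (33.3), and a difference against a floored array is a lower bound. The probe set with the highest mean floored log2 stood for a gene; 9473 of 12393 genes, all 6 members among them, had at least 1 array above the floor. Calls are by size (2-fold); a departure from additivity was called at 1 log2 and not where a pair lay at the floor on both arrays. Each group had 1 sample, so no test was run. Computations used Python 3.11.15, numpy 2.4.6 and pandas 2.3.3, and the calling step was tested on simulated data.

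The members and lists were chosen with earlier results of these data known. All members were named, with up to 4 genes per list with the largest difference in LPS over media and in SEA/LPS over LPS, and the 3 genes nearest in pattern; Cd276, Ctla4, Pdcd1, Ccl22 and the cell type markers are named beside them. Alternatives were 3 other scalings, 2 other floors, 2 other probe set choices and 2 other thresholds.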

Additional observations from a re-analysis of the deposited data

Results flagged for a closer look

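For Cd80, Cd86 and Cd83, on the probe set used for each, the SEA difference was above 0 without LPS and below 0 with it, each on 1 array per group, and the difference between the backgrounds was not tested. The departure was -0.68 for Cd80, -0.20 for Cd86 and -0.64 for Cd83. For Cd80 the differences were 0.07 without LPS and -0.61 with it, for Cd83 0.12 and -0.52, and for Cd86 0.14 and -0.06. The part above 0 is small beside the SD of 0.35 over all genes in SEA over media. When scaled to the hybridisation controls the signs were no longer opposed for Cd80, whose SEA difference was -0.02 without LPS, and for Cd86, whose difference with LPS was 0.18, and for Cd86 the difference with LPS was 0.002 when scaled to the 75th percentile. On the other Cd86 probe set both differences were below 0 (-0.01 and -0.27), and the Cd80 difference without LPS was 0 with the median over probe sets and with a floor at the 50th percentile.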

How the results depend on the processing

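The counts of the 6 genes past the threshold stayed within 1.5 times of the reported ones in 42 of 45 combinations of comparison and alternative. The exceptions were SEA/LPS over LPS, with 1 gene (Icosl) when scaled to the hybridisation controls and 2 (Cd80 lower, Icosl higher) at 1.5-fold, and the departure from additivity, with 2 (Cd80 and Cd83, both lower) at 1.5-fold. Among all 9534 genes measured under hybridisation control scaling, 299 were higher and 134 lower in SEA/LPS over LPS. At 1.5-fold, 735 of all 9473 genes were higher and 1271 lower in that comparison. The departure at 1.5-fold was upward for 1030 and downward for 1578 of the 9473. The count of 4 in LPS over media under hybridisation control scaling was 3 higher and 1 lower, since Cd80 left it and Icosl, lower, entered. Of 270 differences of single genes under an alternative, 258 kept their call, 5 lost it and 7 gained one, and 0 called values turned sign. The cause was not tested, except that the threshold itself makes the 1.5-fold and 3-fold changes and that another probe set stood for Cd80 with a floor at the 50th percentile (1.46 for LPS over media, 1.16 for SEA/LPS over media). Dropping probe sets with _s or _x in their names, and a floor at the 20th percentile, left every difference of the 6 genes as reported. For Cd274, Pdcd1lg2 and Cd83, with 1 probe set each, the median over probe sets also changed nothing. The 258 and the 42 therefore include values that could not move. Over all genes, LPS over media gave 284 higher and 2431 lower when scaled to the hybridisation controls, 1084 and 1293 with a floor at the 20th percentile, 1340 and 1987 at 1.5-fold and 260 and 190 at 3-fold, against 574 and 799. Of 315 counts over the related lists 50 moved by more than 1.5 times. Signals near the floor limit Cd80 most, and 3 of the 11 probe sets were at or under it on all arrays. No paired analysis was possible because each group was 1 sample.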
